A study of Mus musculus with 531 samples.

Results

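The genes described here encode 9 proteins of the basement membrane, the thin sheet of extracellular matrix on which epithelia rest. Laminins form its polymer network as trimers of an α, a β and a γ chain, and collagen IV forms a second network as trimers of collagen α chains. Nidogen and the proteoglycan perlecan link the networks, and SPARC is a matrix glycoprotein that binds collagen IV. Around implantation the primitive endoderm of the mouse embryo is known to secrete laminin and collagen IV towards the epiblast, the pluripotent tissue that later gastrulates, and its parietal derivative lays down Reichert's membrane.

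The 9 genes were chosen by name out of the 22084 genes in the table of counts: the laminin chains Lama1 and Lama5 (α), Lamb1 (β) and Lamc1 (γ), the collagen IV chains Col4a1 and Col4a2, nidogen 1 (Nid1), perlecan (Hspg2) and Sparc. All 9 had a row. RNA was read in single cells of untreated C57Bl/6Babr mouse embryos, picked by pipette and sequenced with a full-length protocol whose reads carry no molecular identifiers. At E4.5 the trophectoderm had been removed by immunosurgery, at E5.5 visceral endoderm and extraembryonic ectoderm had been separated by pipette, and at E6.5 extraembryonic tissue had been dissected by hand. Of 264 cells, 217 had at least 50000 reads and 2000 detected genes and were kept: 75 from 5 embryos at E4.5, 59 from 1 embryo at E5.5 and 83 from 2 embryos at E6.5. Their depth ranged from 306995 to 2632015 reads at E4.5, from 600404 to 3772599 at E5.5 and from 112008 to 8904445 at E6.5. No label prefix is shared between stages (E4.5 has 2, for embryos 1 and 2 and for embryos 3 to 5), and batches that go with a prefix cannot be told apart from the stage.

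Within each stage cells were clustered on marker genes of epiblast, endoderm, mesoderm and trophectoderm alone, with none of the 9 genes among them. At E4.5 55 cells were endoderm-like, with 8 of 12 endoderm markers raised, and 20 were epiblast-like, with 7 of 9 epiblast markers raised. At E5.5 8 cells were endoderm-like (11 of 12 markers) and 51 epiblast-like (6 of 9). At E6.5 20 cells were endoderm-like (12 of 12, with 5 of 8 trophectoderm markers also raised). Another 23 were mesoderm-like (7 of 9, with 4 of 9 epiblast and 3 of 12 endoderm markers also raised), all from embryo 2. A further 25 E6.5 cells, called Nanog-led here, had 6 epiblast and 6 trophectoderm markers raised and could not be named, and 15 cells led by Gm10801 had none raised. No E6.5 class was therefore epiblast-like, and the Nanog-led cells, chosen after the data were seen, stand in its place in the E6.5 comparisons.

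Lineage genes overlapped between classes at E6.5. Ttr and Apoa1, secreted proteins of visceral endoderm, were read in 100% of the E6.5 cells of every class, with median log2(CPM + 1), where CPM is counts scaled to the reads of a cell, of 9.82 and 9.56 in the Nanog-led cells, 8.85 and 8.58 in the mesoderm-like cells and 12.13 and 11.70 in the endoderm-like cells. Pou5f1, a pluripotency factor, had a median of 7.24 in the E6.5 endoderm-like cells. In the E5.5 epiblast-like cells the medians of Ttr and Apoa1 were 0. At E4.5 Pou5f1 had a median of 9.19 in endoderm-like and 10.58 in epiblast-like cells. The part of this overlap in the E6.5 values below was not tested. All 8 endoderm-like cells at E5.5 had a cell number that was a multiple of 12, and no other kept E5.5 cell did.

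**Figure D1:**
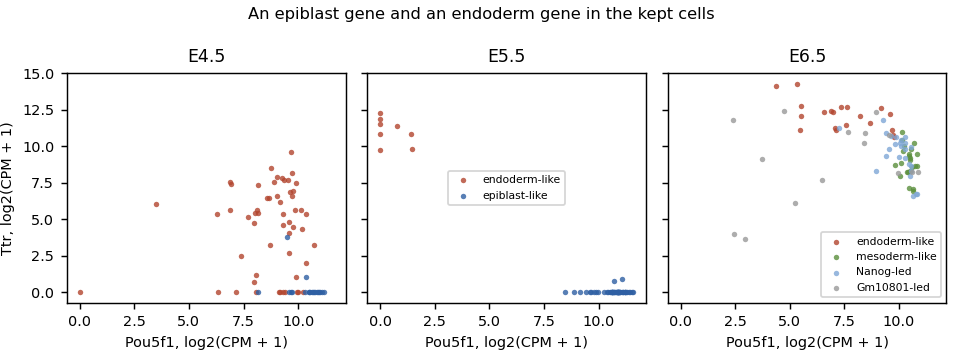
Each point is a kept cell, placed by its log2(CPM + 1) of Pou5f1 (x axis) and of Ttr (y axis), with 1 panel per stage and colour for the class. Ttr separates the classes at E5.5, where its median is 0 in epiblast-like cells, whereas at E6.5 it is read in every cell of every class.

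Col4a1 and Col4a2 sit head to head, and their promoters are shown because of the 36 pairs this one had the highest correlation among E4.5 endoderm-like cells (below). Col4a1 lies at chr8:11198423-11312826 on the minus strand and Col4a2 at chr8:11312805-11449287 on the plus strand (GRCm38, GENCODE vM21), so their annotated starts overlap, and the counting is not stated to use strand. The promoter windows of RefSeq (GRCm38.p6), from 250 bases before to 50 after each start, overlap by 78 bases. They are chr8:11312777-11313076 for Col4a1 and chr8:11312555-11312854 for Col4a2, each printed 5′ to 3′ on the gene's own strand. Capitals mark the CCAAT motif (on the other strand ATTGG) and the binding motif of SP family factors, GGGCGG (on the other strand CCGCCC). Within a window no marked motifs overlap. The SP motif marked in Col4a1 lies where the windows overlap and is the same site, chr8:11312812-11312817, as the last of the 3 marked in Col4a2, read from the other strand.
Col4a1: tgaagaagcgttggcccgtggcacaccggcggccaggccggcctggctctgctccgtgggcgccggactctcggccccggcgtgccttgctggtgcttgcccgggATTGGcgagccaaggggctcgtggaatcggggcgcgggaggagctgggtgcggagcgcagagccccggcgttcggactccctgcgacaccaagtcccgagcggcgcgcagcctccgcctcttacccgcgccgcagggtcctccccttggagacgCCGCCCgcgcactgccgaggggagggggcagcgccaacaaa
Col4a2: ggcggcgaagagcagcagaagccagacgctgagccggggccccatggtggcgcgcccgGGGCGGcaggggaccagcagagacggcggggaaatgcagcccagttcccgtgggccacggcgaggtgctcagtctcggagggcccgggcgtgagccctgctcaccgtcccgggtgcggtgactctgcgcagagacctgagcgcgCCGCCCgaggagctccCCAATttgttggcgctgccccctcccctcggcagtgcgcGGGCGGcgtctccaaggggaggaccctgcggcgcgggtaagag

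Windows were found for 7 of the 9 genes. CCAAT was in 4 of them (Lamb1, Col4a1, Col4a2 and Nid1) and in 37.4% of all 32851 windows, and GGGCGG was in 6 and in 35.7% of all windows, the site shared by Col4a1 and Col4a2 counting for both. The 7 windows held 55.3% (Sparc) to 74% (Col4a1) G and C, against a median of 52.7% over all windows. The window of Sparc, the one without either motif that also had the lowest G and C, was placed by a RefSeq start 3103 bases inside the gene as GENCODE gives it. For the other 6 the annotated starts lay 0 to 59 bases apart. All motifs were searched on both strands. The GATA motif GATAA was in none of the 7 and in 25.4% of all windows. The SOX motif ACAATGG was in none and in 3.66% of all windows. The sequence CTCCCTCC was in none and in 7.07% of all windows. The other genes lie at chr17:67697259-67822647 on the plus strand (Lama1), chr2:180176373-180225859 on the minus strand (Lama5), chr12:31265234-31329644 on the plus strand (Lamb1), chr1:153218922-153332786 on the minus strand (Lamc1), chr13:13437551-13512269 on the plus strand (Nid1), chr4:137468769-137570630 on the plus strand (Hspg2) and chr11:55394500-55423183 on the minus strand (Sparc).

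At E4.5 the chains of laminin and collagen IV, perlecan and Sparc were higher in endoderm-like than in epiblast-like cells of the same embryos, in 7 of the 9 genes. Lama5 and Nid1 did not pass the test. Levels are CPM of the reads summed over the cells of a class in an embryo, listed for embryos 1 to 5 in that order. The endoderm-like sums held 10, 4, 6, 19 and 16 cells and the epiblast-like sums 5, 4, 4, 5 and 2. Differences are log2 fold changes ± SE from edgeR's quasi-likelihood test with the embryo as a block and Benjamini-Hochberg adjustment over all genes. The test itself gives no SE. Each SE was derived as the size of the fold change over the square root of its F statistic. Of 12028 genes tested, 5.86% were higher and 2.83% lower in endoderm-like cells. The filter on low counts also used the E6.5 endoderm-like sums. Genes that entered through E6.5 alone are among the 12028 and lower the shares given for this comparison. They were not counted apart. The median fold change was 3.89 on the log2 scale over the 9 genes and 0.44 over all genes.

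Lama1, the α chain of early embryonic laminin, stood at 1166, 1063, 1405, 561 and 577 CPM in the endoderm-like cells and at 195, 0.487 (1 read), 23.3, 3.91 and 45 CPM in the epiblast-like cells. Every endoderm-like value lay above every epiblast-like value, with a difference of 5.51 ± 0.82 (adjusted p = 0.000254). Lamb1, the β chain, stood at 1904, 2089, 1948, 1268 and 1582 CPM against 97.5, 22.4, 11, 40.7 and 0.484 (1 read) CPM. It did not overlap between classes either and differed by 6.35 ± 0.70 (adjusted p = 1.29e-05). Lamc1, the γ chain shared by most laminins, stood at 1427, 1141, 2191, 782 and 1150 CPM against 108, 58.9, 108, 89.5 and 53.3 CPM. Its epiblast-like level lay within a narrow range above 50 CPM, and its difference was 3.89 ± 0.31 (adjusted p = 3.88e-07).

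Lama5, the α chain of the laminins typical of later epithelia, went the other way without passing the test. It stood at 93.8, 51.5, 45.6, 17.6 and 32.4 CPM in the endoderm-like and at 102, 67.6, 86.8, 125 and 53.3 CPM in the epiblast-like cells. The classes overlapped, and the difference was -1.06 ± 0.52 (adjusted p = 0.239). Per kb of exon, Lama1 made up 96% ± 1.56 (SD, n = 5 embryos) of the reads of both α chains in the endoderm-like cells. In the epiblast-like cells that share ran from 0.839% to 69.2% among embryos.

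Col4a1 stood at 974.8, 807, 905, 476 and 605 CPM in endoderm-like cells and at 137, 1.95, 7.02, 20.5 and 18.4 CPM in epiblast-like cells (difference 5.36 ± 0.67, adjusted p = 4.55e-05). Col4a2, its partner in the collagen IV trimer, stood at 706, 683, 658, 334 and 399 CPM against 0, 0, 1.12, 5.34 and 0 CPM. Neither chain overlapped between classes. The fitted difference of Col4a2 was 9.08 ± 0.80 (adjusted p = 1.05e-06), whose size depends on the prior count because 3 of 5 epiblast-like sums were 0. Per kb of exon the ratio of Col4a1 to Col4a2 was 1.22 ± 0.11 (SD, n = 5 embryos) in endoderm-like cells.

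Hspg2 stood at 738, 452, 891, 360 and 653 CPM in endoderm-like cells and at 63.2, 35.5, 33.4, 90.5 and 21.3 CPM in epiblast-like cells (difference 3.69 ± 0.43, adjusted p = 2.58e-05). Sparc stood at 4059, 2652, 2941, 2082 and 2446 CPM against 230, 162, 282, 367 and 132 CPM (difference 3.57 ± 0.29, adjusted p = 3.98e-07). For both, the lowest endoderm-like value was above the highest epiblast-like value. Nid1 stood at 130, 65.8, 86.5, 45.9 and 50.1 CPM against 12.9, 121, 15.2, 56.4 and 2.42 CPM. The Nid1 values overlapped, embryos 2 and 4 having the higher level in epiblast-like cells, and the difference of 1.68 ± 0.82 did not pass the test (adjusted p = 0.231).

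**Figure D2:**
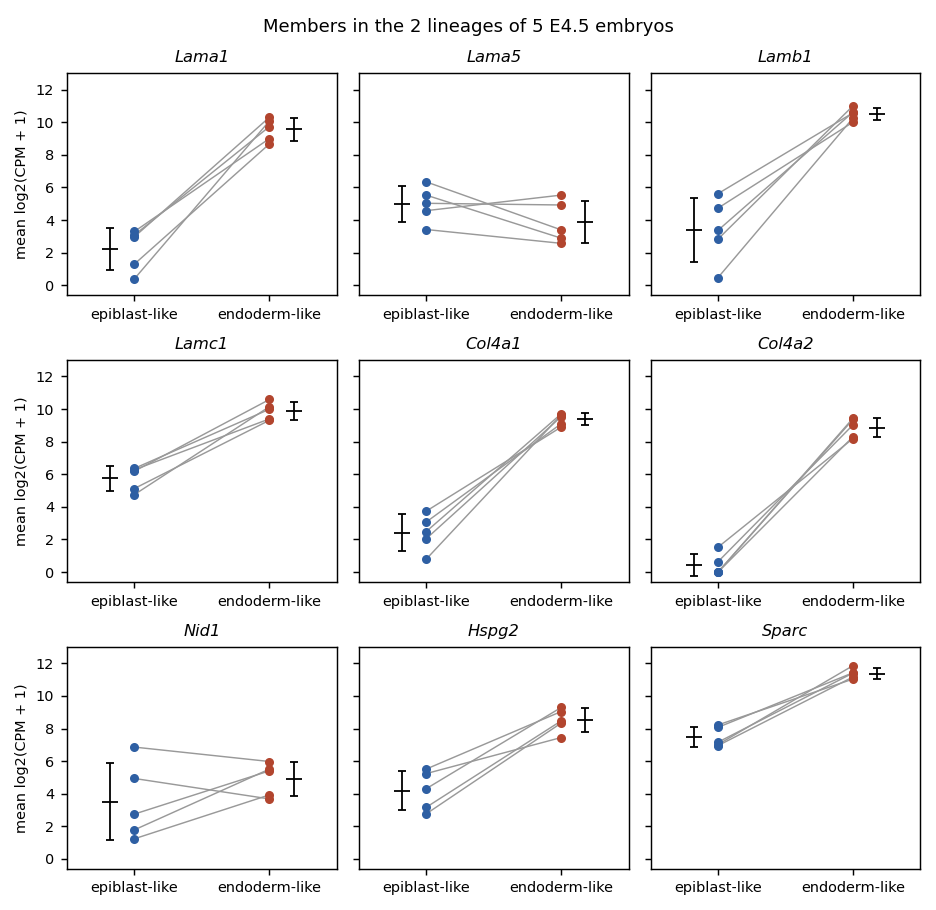
Mean log2(CPM + 1) over the cells of a class (y axis) in both classes of each of the 5 E4.5 embryos, with a line joining the classes of an embryo and 1 panel per gene. Lines rise in 5 of 5 embryos for all genes except Nid1 (3 of 5) and Lama5 (1 of 5).

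In all, 7 of the 9 genes had every endoderm-like sum above every epiblast-like sum, as did 8.78% of all genes tested. The number of higher genes was also 7 without the 5 endoderm-like cells that held many markers of both lineages, and in embryos 1 and 2 or embryos 3 to 5 alone, the sets that share a label prefix. The epiblast-like level of Lama1 and Col4a1 in embryo 1 rested on 1 cell, with 635107 reads but 2025 detected genes. It held Lama1 at 9.56 and Col4a1 at 9.05 on the log2(CPM + 1) scale and no read of Lamb1, Col4a2, Lama5 or Nid1. The other epiblast-like cells reached 6.59 and 5.91. The cell of embryo 1 also had no read of the epiblast marker Tdgf1, read in 95% of its class, or of the endoderm marker Dab2. With at least 200000 reads and 4000 genes per cell, which leaves that cell out, Lama1 differed by 6.84 ± 0.69 (adjusted p = 4.64e-06) and Col4a1 by 6.60 ± 0.58 (adjusted p = 9.32e-07).

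Compared per kb of exon, the E4.5 endoderm-like levels spread widely. Sparc was at 749 CPM per kb (mean over 5 embryos, range 549.7 to 1071). Lamb1 (177) and Lamc1 (162) followed with overlapping ranges, then Col4a1 (101), Lama1 (98.6) and Col4a2 (84), whose ranges overlapped as well. The lowest values of Lamb1 (128) and Lamc1 (94.5) lay below the highest of Lama1 (145) and Col4a1 (131), so these ranges overlapped too. Hspg2 (43.2, range 25.2 to 62.3) overlapped the low ends of Col4a2 and Lama1, and Nid1 (10.9) and Lama5 (4.23) came last with overlapping ranges. The ratio of Lamb1 to Lamc1 was 1.18 ± 0.29 and that of the summed α chains to Lamc1 0.643 ± 0.149 (SD, n = 5 embryos).

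**Figure D3:**
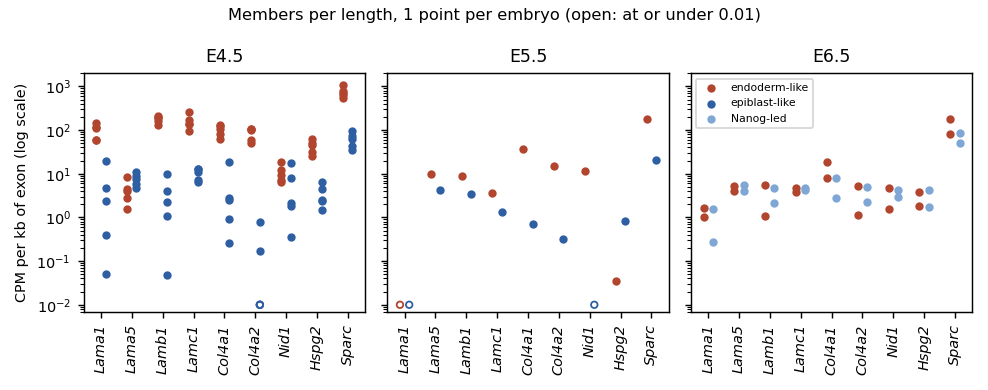
CPM per kb of exon (log scale) of each gene, 1 point per embryo, with 1 panel per stage and colour for the class. Open points are at or under 0.01. At E4.5 Sparc leads and Lama5 is lowest in endoderm-like cells, and the classes lie closer together at E6.5.

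A read of all 9 genes was found in 34 of 55 E4.5 endoderm-like and 1 of 20 E4.5 epiblast-like cells. At E5.5 no cell held all 9. At E6.5 it was 13 of 20 endoderm-like, 11 of 25 Nanog-led, 7 of 23 mesoderm-like and 0 of 15 Gm10801-led cells, counts that also depend on depth. Across the 55 cells, Col4a1 and Col4a2 had the highest Pearson correlation of log2(CPM + 1) among the 36 pairs (0.79, or 0.76 within embryos), and the median within embryos was 0.43. The lowest was Lama5 with Lamb1 (-0.08 within embryos). Each gene also had lower values in deeper cells (r from -0.30 to -0.57), and depth is shared by the pairs, and no p-value is given. In the 20 E6.5 endoderm-like cells Col4a1 and Col4a2 had r = 0.62 within embryos, below Lamc1 with Col4a1 (0.81). In the other classes with a value Col4a1 and Col4a2 had r within embryos of 0.17 (E4.5 epiblast-like), -0.11 (E5.5 epiblast-like), 0.11 (mesoderm-like) and 0.39 (Nanog-led).

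**Figure D4:**
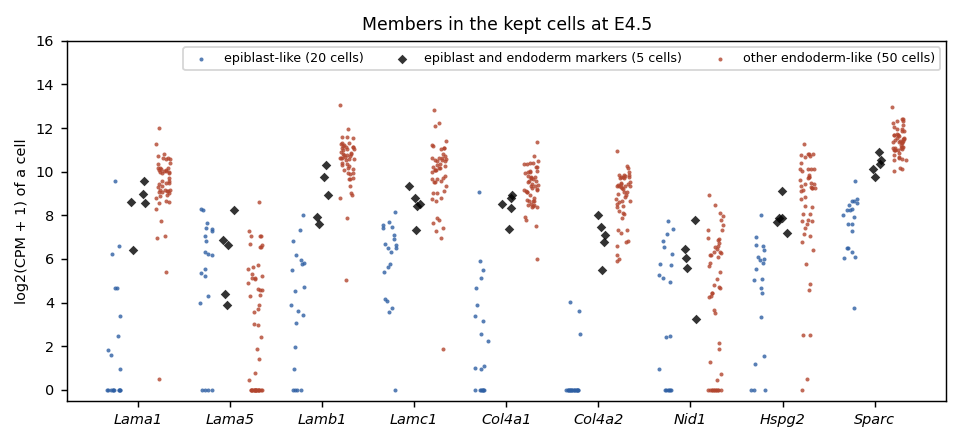
log2(CPM + 1) of each gene in every kept E4.5 cell, as points for the 20 epiblast-like cells, the endoderm-like cells and, as diamonds, the 5 cells with many markers of both lineages. The diamonds lie within the range of the other endoderm-like cells in 5 of 5 cells for 7 of the 9 genes, and within that of the epiblast-like cells in 5 of 5 for Lama5 and Col4a1 and in 0 of 5 for Col4a2 and Sparc.

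The 5 E4.5 cells that held many markers of both lineages came from embryos 1, 3, 4 and 5. Ward clustering put them with the endoderm-like cells, whereas Leiden clusters and the marker score each called all 5 epiblast-like, and the count of genes higher in endoderm-like cells was 7 under these assignments too. Their median log2(CPM + 1) was below that of the other endoderm-like cells for the 7 genes called at E4.5. It was 8.63 against 9.53 for Lama1, 8.94 against 10.65 for Lamb1, 8.53 against 10.11 for Lamc1 and 8.52 against 9.37 for Col4a1. It was 7.12 against 9.14 for Col4a2, 7.87 against 9.24 for Hspg2 and 10.34 against 11.38 for Sparc. For Lama5 (6.64 against 3.62) and Nid1 (6.04 against 4.96) it was higher. Pou5f1 had a median of 10.35 in the 5 cells. The values lay within the range of the other endoderm-like cells in all 5 cells for 7 of the genes and in 4 of 5 for Col4a2 and Sparc. That range was wide, reaching down to 0.51 for Lama1, 1.87 for Lamc1 and 0 for Lama5, Nid1 and Hspg2. The values also lay within the range of the epiblast-like cells in 5 of 5 cells for Lama5 and Col4a1, in 4 of 5 for Lama1, Nid1 and Hspg2, in 2 of 5 for Lamb1, in 1 of 5 for Lamc1 and in 0 of 5 for Col4a2 and Sparc. The upper end of that range for Lama1 and Col4a1 was the cell of embryo 1 described above. Doublets were not called.

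At E5.5, in 1 embryo, no test was possible. Exact 95% Poisson intervals cover counting error of reads only. They take reads as independent, although the reads carry no molecular identifiers. The collagen IV chains, Nid1 and Sparc were higher in the 8 endoderm-like cells, whereas Lama1, so abundant at E4.5, had 1 read in each class. Col4a1 was at 274 CPM (265 to 282) against 5.34 (4.84 to 5.87) in the 51 epiblast-like cells, 51.3-fold higher. Col4a2 was at 101 against 2.07 CPM by summed reads, 48.7-fold higher. Its means over cells were 3.86 against 0.36 on the log2(CPM + 1) scale, with a read in 6 of 8 against 5 of 51 cells. Sparc was at 690 against 78 CPM, 8.85-fold higher.

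Nid1 was at 80.6 CPM in the E5.5 endoderm-like cells, with a read in 5 of 8, and had no read in the 51 epiblast-like cells. By 3 counts this allows up to 5.88% of epiblast-like cells with a read. The endoderm-like level was 2129-fold that of a floor of 3 counts over the epiblast-like class, or 0.0378 CPM. The exact upper limit of that class was higher, at 0.0465 CPM, so the fold is not a lower bound. By summed reads the laminin chains other than Lama1 differed less, at 114 against 48.4 CPM for Lama5 (2.36-fold), 87.2 against 33.9 for Lamb1 (2.57-fold) and 29.6 against 10.9 for Lamc1 (2.71-fold). For Lama5 the means over cells did not show this difference: log2(CPM + 1) was 3.70 against 3.71, with a read in 62.5% against 68.6% of the cells. Means for Lamb1 (5.58 against 2.70) and Lamc1 (3.05 against 1.11) kept the direction of the sums. Hspg2 had the opposite order, at 0.511 CPM (0.221 to 1.01) in endoderm-like and 12.2 CPM (11.4 to 13) in epiblast-like cells. Of the 2 α chains, Lama1 made up 0.0659% of the reads per kb in the endoderm-like and 0.0306% in the epiblast-like cells. Per kb, the ratio of Lamb1 to Lamc1 was 2.46 and that of Col4a1 to Col4a2 2.41 in endoderm-like cells.

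At E6.5 the difference between lineages seen at E4.5 was not detectable. None of the 9 genes passed the test between endoderm-like and Nanog-led cells, and 0% of the 12538 genes tested did, with 197 of these and 1 of the 9 (Sparc, 0.87 ± 0.38, p = 0.0379) at an unadjusted p under 0.05. DESeq2 called 20 genes and none of the 9. Lama1 stood at 9.70 and 15.6 CPM in the endoderm-like cells of embryos 1 and 2 and at 15.1 and 2.60 CPM in the Nanog-led cells. Lamb1 stood at 56 and 10.7 against 47.8 and 21.1 CPM, and Lamc1 at 31 and 39.7 against 35 and 38.7 CPM. These laminin values overlapped between classes.

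Lama5 overlapped too, at 46.8 and 60.5 against 45.6 and 62.1 CPM. Col4a1 stood at 142 and 58.4 against 59.9 and 20.6 CPM and Col4a2 at 33.8 and 7.41 against 32.3 and 14.7 CPM. Nid1 stood at 11 and 33.1 against 29.4 and 19.99 CPM, and Hspg2 at 26.4 and 55.8 against 62.3 and 25.2 CPM. Sparc stood at 313 and 662 against 192 and 327 CPM. Col4a1 and Sparc had the higher level in endoderm-like cells within each of the 2 embryos, although the classes overlapped across embryos. Fitted differences ran from -0.43 ± 0.90 (Col4a2) to 1.38 ± 0.86 (Col4a1). Embryo 2 gave 4 of the 20 endoderm-like cells.

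The difference between lineages was smaller at E6.5 than at E4.5 for 3 of the 9 genes by a test of the change itself, against 0.136% of 12538 genes with a smaller and 0.199% with a changed difference. The change was -3.96 ± 0.49 for Lamc1 (adjusted p = 0.0170), -9.45 ± 1.37 for Col4a2 (adjusted p = 0.0172) and -2.70 ± 0.46 for Sparc (adjusted p = 0.0371). Lamb1 was just outside (-6.68 ± 1.28, adjusted p = 0.0527), and the median over all genes was -0.54. The call of Sparc held in 7 of 16 alternatives. It was lost without E4.5 embryo 1, 2 or 3, without either E6.5 embryo, with embryos 3 to 5 alone, by limma, with 1 more cluster per stage (-1.07) and with cells assigned by marker score (-1.29). That of Col4a2 was lost with 1 more cluster per stage (-1.94) and with cells assigned by marker score (-2.14).

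Between E4.5 and E6.5 the endoderm-like cells themselves fell in 7 of the 9 genes, where 2.67% of 11400 genes were lower at E6.5. From the values given above, Lama1 went from 561 or more to 15.6 CPM or less, a fall of 6.19 on the log2 scale (SE 0.54, adjusted p = 5.57e-06). Lamb1 fell by 5.56 (SE 0.66, adjusted p = 0.000113), Lamc1 by 5.18 (SE 0.49, adjusted p = 1.16e-05) and Col4a2 by 4.58 (SE 0.64, adjusted p = 0.000544). Hspg2 fell by 3.89 (SE 0.49, adjusted p = 0.000166), Col4a1 by 2.78 (SE 0.47, adjusted p = 0.00235) and Sparc by 2.51 (SE 0.38, adjusted p = 0.000935). Every E4.5 value of these genes, and of Nid1, was above both E6.5 values, as for 11.9% of all genes tested. Nid1 differed by -1.75 ± 0.58 (adjusted p = 0.0962) and Lama5 by 0.25 ± 0.56 (adjusted p = 0.872).

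The proportions between chains differed in part. Lama1 made up 19.6% and 23.3% of the reads per kb of both α chains in the E6.5 endoderm-like cells. The ratio of Col4a1 to Col4a2 per kb was 3.72 and 7.0, above the E4.5 range of 1.05 to 1.35. The 7.0, in embryo 2, rested on 36 reads of Col4a2 in 4 cells. That of the summed α chains to Lamc1 was 1.36 and 1.44, above the E4.5 range of 0.449 to 0.829. That of Lamb1 to Lamc1 was 1.51 in embryo 1, within the E4.5 range of 0.741 to 1.53, and 0.225 in embryo 2, below it. Of 6 markers of parietal endoderm, 3 fell as well: Sox7 fell by 3.24 (adjusted p = 0.00148), Srgn by 4.73 (adjusted p = 0.00207) and Pth1r by 2.0 (adjusted p = 0.0107). The summed level of all 6 markers (Sox7, Plat, Thbd, Fst, Pth1r and Srgn) was 1166 to 4597 CPM at E4.5, with 3 of the 6 above a median of 0 over cells, and 132 to 192 CPM at E6.5, with 4 of 6. Of the other 3, Fst went from a read in 12.7% of the cells to 70% (2.72 ± 1.54, adjusted p = 0.370), Plat differed by -1.52 ± 1.43 (adjusted p = 0.631), and Thbd, with too few reads to test, was read in 1.82% and 10% of the cells. The part of these cells, and of the dissection, in the fall was not tested.

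Between E4.5 epiblast-like and E6.5 Nanog-led cells none of the 9 genes passed the test, where 1.77% of 10786 genes did. The differences ran from -2.73 (Lama1) to 4.01 (Col4a2), and 1 of the 9 (Lamc1, -1.28) had an unadjusted p under 0.05 (0.0418).

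The pathway around these proteins was described with a list of 60 other genes, in which 15 of 46 tested genes were higher and 2 lower in E4.5 endoderm-like cells, against 8.69% of all genes changed in either direction. Enzymes and chaperones of collagen biosynthesis made up 11 of the 15, out of 13 tested. P4ha2, a prolyl 4-hydroxylase subunit, was 94.2 to 150 CPM in endoderm-like and at most 1.42 CPM in epiblast-like cells (8.58 ± 0.91, adjusted p = 9.25e-06). P3h2, a prolyl 3-hydroxylase, was at 0 in the epiblast-like cells, and its level in the endoderm-like cells was 102-fold that of a floor of 3 counts. P3h2 passed the filter on low counts through endoderm-like sums alone, so that its place among the 11 is no support for a direction of the list. Plod2, a lysyl hydroxylase, differed by 5.28. Of 7 other matrix proteins tested, Pxdn, a peroxidase that cross-links collagen IV, was higher (3.96), and Col18a1 (-4.32) and Fn1, fibronectin (-2.04), were lower. Of 13 receptors Sdc4 (2.59) and Itga5 (2.11) were higher, as was Mmp15 (4.61) of 9 proteases and inhibitors, and none of 4 other laminin chains passed. Of the 46 and the 9, Mmp9 and Adamts1 had no read in any E4.5 sum, entered the fit through E6.5 and could not be called here.

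In the endoderm-like cells at E6.5 against E4.5, 4 of 43 tested pathway genes rose and 7 fell, against 5.35% of all genes changed. The 11 became 7 without E6.5 embryo 1 and also 7 without E6.5 embryo 2. Biosynthesis genes fell in 5 of 13, among them P4ha2 by 5.79, Plod2 by 4.51 and the collagen chaperone Serpinh1 by 4.28. Timp1, a protease inhibitor, fell by 4.04 and the integrin chain Itga5 by 2.22. Col18a1 (4.23), Fbln1 (1.85), Mmp9 and Adamts1 rose, the last 2 from 0 in every E4.5 sum to levels 312-fold and 226-fold those of a floor of 3 counts. Mmp9 and Adamts1 passed the filter on low counts through E6.5 alone, where they were high, so that their place among the 4 is no support for a direction of the list. The lineage difference became smaller for P4ha2, P4hb and Serpinh1 of 48 tested, against 0.136% of 12538 genes with a smaller and 0.199% with a changed difference. Of 41 tested between Nanog-led and E4.5 epiblast-like cells, 2 were lower in the Nanog-led cells, Fn1 (-2.80, adjusted p = 0.0478) and Timp1 (-4.04, adjusted p = 0.0383), and none was higher, against 1.77% of all genes changed. The 2 became 0 without E4.5 embryo 2, E4.5 embryo 3, E6.5 embryo 1 or E6.5 embryo 2 and 1, Timp1, without E4.5 embryo 1 or E4.5 embryo 4.

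Over 15 sums of embryo and class, those of the classes named -like (without the 4 sums of Nanog-led and Gm10801-led cells), the genes most like the mean of the 9 were P4hb (r = 0.96), Eva1a (0.95), Rpn1 (0.95), Prss35 (0.94) and Glipr1 (0.94), out of 7981 genes. The sums share cells' stage and depth, and no p-value is given. Of the 9 genes, Sparc (0.96) and Lamc1 (0.93) were closest to the mean of the others, and Nid1 (0.59) and Lama5 (-0.31) were farthest.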

How the data were processed

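Single cells of mouse embryos were profiled by parallel bisulfite and RNA sequencing, and RNA alone was used here. The authors deposited raw counts of reads per Ensembl gene without normalization. Per the labels, reads were trimmed (Trim Galore 0.4.2), aligned to GRCm38 (HISAT2 2.1.0) and counted (featureCounts). A GENCODE table named 21907 of 22084 genes. Embryos were taken from the labels, which hold 5 for E4.5, a number that differs from the paper's. The 9 genes, the gene lists and the tests were chosen with earlier results of these data known.

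log2(CPM + 1) was computed per cell. Cells were put into classes by Ward clustering within each stage (2, 2 and 4 clusters), and the name of a cluster came from the list with most markers that stood 1 or more (log2) above the other cells and were read in 50% or more of the cluster. Counts were summed per embryo and class and compared in edgeR 4.0.16 (its quasi-likelihood test, TMM scaling, its filter on low counts, threshold 0.05), blocked by embryo within stages. Classes and tests use the same cells, and p-values cover the spread between embryos only. The block joins classes of 1 embryo as the labels name it. Deviations of both classes from their means correlated by 0.0252 to 0.0950 within an E4.5 embryo, and same-numbered E4.5 and E6.5 embryos by -0.0914 and -0.00914. The test was run on simulated counts first. DESeq2 1.42.0 and limma 3.58.1 were alternatives, besides other filters, classes and embryo sets. Named were all 9 genes and, per list and comparison, up to 3 other genes past the threshold with the largest change. Intervals cover counting error of reads only, with reads taken as independent.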

Additional observations from a re-analysis of the deposited data

Results flagged for a closer look

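The difference between endoderm-like and epiblast-like (at E6.5 Nanog-led) cells changed between E4.5 and E6.5 for 3 of the 9 genes by the interaction term of edgeR's fit. The log2 difference at E6.5 minus that at E4.5 was -3.96 for Lamc1, -9.45 for Col4a2 and -2.70 for Sparc.

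Groups of 5 E4.5 embryos were examined for an embryo far from the other 4 by Dixon's test. On the log2 scales, 27 groups in all, none had one. Among the 18 groups of CPM of the summed reads, 3 had one, all in epiblast-like cells, where chance marks about 1 in 20 groups. Col4a1 was at 136.5 CPM in embryo 1 and at 1.95 to 20.5 CPM in the other 4, and Lama1 at 194.5 CPM in embryo 1 and at 0.487 to 45 CPM in the others. Both values rested on the same cell, with 635107 reads and 2025 detected genes. Col4a2 was at 5.34 CPM in embryo 4 and at 0 to 1.12 CPM in the others.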

How the results depend on the processing

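The count of the 9 genes called between the E4.5 classes was 7 in the report and 7 to 8 under every alternative run, with 8 by DESeq2 (Nid1 joined) and with 1 more Ward cluster per stage (Lama5 joined, lower). It was 7 without each embryo in turn and without the replicate block. The count lower in E6.5 than in E4.5 endoderm-like cells was 7 to 8, 8 with Leiden clusters and DESeq2, and 7 with the replicate block and without each embryo. Between the E6.5 classes the count of 0 became 1 with 1 more Ward cluster (Sparc, 1.64, adjusted p = 0.0214). For the change of the lineage difference the count of 3 became 5 with at least 200000 reads and 4000 genes per cell, 7 with no filter on low counts, 6 by DESeq2 and 5 by limma on equally weighted cells. It was 4 without the replicate block and 2 to 4 without each embryo. For Nanog-led against E4.5 epiblast-like cells the count of 0 became 1 by limma (Col4a2, 2.51, adjusted p = 0.0111) and was 0 with the replicate block. Leiden clusters gave no E6.5 epiblast-like cells, so these comparisons were not run with them. The causes of these changes were not tested.

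Among all genes tested, the 705 higher and 340 lower in E4.5 endoderm-like cells became 1934 and 833 by DESeq2, 912 and 741 with 1 more cluster and 849 and 705 by marker score. The 306 higher and 304 lower at E6.5 in endoderm-like cells became 1523 and 275 by limma, 781 and 358 by marker score, 417 and 743 by DESeq2 and 156 and 263 with the replicate block. For the Nanog-led cells the 36 higher and 155 lower became 1441 and 208 by limma, 190 and 515 by DESeq2 and 144 and 314 with the block. The change of the lineage difference was called in 24 and 24 genes by limma, 110 and 244 by DESeq2 and 42 and 121 without a filter on low counts. Of all genes, 1045 were called between the E4.5 classes, with 627 without E4.5 embryo 2 and 696 without embryo 4, 315 higher and 171 lower in embryos 1 and 2 and 327 and 132 in embryos 3 to 5. The 610 between stages in endoderm-like cells became 137 higher and 164 lower without E6.5 embryo 1 and 145 and 113 without E6.5 embryo 2. The 25 with a changed lineage difference became 9 and 15 without these, and 10 and 46 without E4.5 embryos 2 and 5. The 191 called for Nanog-led cells became 54 to 231 without 1 embryo. By limma the median of all genes moved from 0.44 to 0.19, from -0.54 to -0.22, from -0.03 to 0.52 and from 0.08 to 0.86 in the E4.5 lineage, changed lineage, endoderm-like stage and Nanog-led comparisons.

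Reversals of sign concerned uncalled values, given as log2 differences. Between the E6.5 classes, with 1 more Ward cluster, Col4a2 became 2.66, Nid1 1.56, Lamb1 0.22, Lamc1 0.22 and Hspg2 0.0204. With cells assigned by marker score Col4a2 became 2.47, Lamb1 1.16, Nid1 0.96, Lamc1 0.0526 and Lama5 -0.43. By limma Col4a2 became 1.18, Lamb1 0.34, Nid1 0.33, Hspg2 0.0264 and Lama5 -0.52. Without the replicate block Lamb1 became 0.0571 and Lama5 -0.00281, and without a filter on low counts Lama5 became -0.00605.

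Between Nanog-led and E4.5 epiblast-like cells, Col4a1 became 1.97 with the stricter filter on cells, 0.02597 without a filter on low counts, 2.48 by limma, 0.72 with the replicate block and 1.32 in embryos 3 to 5. Lamb1 became 0.96 by limma and 0.89 in embryos 3 to 5, Hspg2 0.52 and Lama5 0.64 by limma. Col4a2 became -3.46 with 1 more cluster and -1.81 by marker score. Sparc became -1.64 with 1 more cluster, -1.86 by marker score, -0.0249 by limma and -0.0919 in embryos 3 to 5. In endoderm-like cells between stages Lama5 became -0.12 by marker score, -0.28 with the replicate block and -0.33 in embryos 1 and 2. The change of the lineage difference of Nid1 became 1.22 with 1 more cluster and 0.61 by marker score.

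Leaving out each embryo in turn gave ranges that crossed 0 for these uncalled values. Between the E6.5 classes they were -0.52 to 2.48 for Lama1, -0.13 to 0.15 for Lama5, -1.08 to 0.34 for Lamb1, -1.09 to 0.18 for Col4a2, -1.30 to 0.63 for Nid1 and -1.13 to 1.05 for Hspg2. Between Nanog-led and E4.5 epiblast-like cells they were -0.86 to 0.81 for Lamb1, -1.02 to 1.67 for Col4a1, -1.13 to 0.0690 for Nid1, -1.08 to 0.29 for Hspg2 and -0.33 to 0.37 for Sparc.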

Other observations

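The E6.5 mesoderm-like cells and the E6.5 cells led by Gm10801 stood in no comparison. In the 23 mesoderm-like cells of embryo 2, Sparc was at 186 CPM of the summed reads, Col4a1 at 57, Hspg2 at 49.8, Lamb1 at 41.7, Lama5 at 40.4, Lamc1 at 28.6, Col4a2 at 13.1, Lama1 at 6.38 and Nid1 at 4.51 CPM. Sparc was read in all 23 of these cells and Nid1 in 11.

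In the Gm10801-led cells of E6.5 embryos 1 and 2, Nid1 was at 174 and 12.8 CPM, and 2 of 7 and 3 of 8 cells held a read of it. Col4a1 was at 65.3 and 128 CPM and Sparc at 101 and 317 CPM in the same sums. Lama1 was at 4.78 and 4.99 CPM.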
